A study of Mus musculus with 44 samples.

Results

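Nuclear actin polymerization was targeted with actin R62D-NLS in 2 HTGTS libraries of AsiSI-MEFs, and 2 libraries with empty vector (EV) served as their controls. These 4 libraries were taken by their sample titles from the 32 HTGTS libraries among the 44 samples of the series, and treated and control libraries were paired by replicate number. AsiSI-MEFs are mouse embryonic fibroblasts of strain C57BL/6, with genotype given as WT, that carry the restriction enzyme AsiSI fused to a truncated estrogen receptor. Cells of both groups were electroporated with a plasmid, and 24 h later were given doxycycline at 3 µg/ml for 24 h, which switches on the enzyme. Over the final 6 h of that time 4-hydroxytamoxifen (4OHT) at 1 µg/ml moved the fusion protein to the nucleus. The plasmid was transient, and neither the fraction of cells that expressed the mutant nor its level was given in the sources used here. The comparison asks whether junctions formed in cultures given the actin mutant differ in number, place and structure.

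Actin is a cytoskeletal protein that is also present in the nucleus, where filaments nucleated by ARP2/3 take part in the movement and clustering of double-strand breaks (DSBs). The R62D substitution prevents actin from joining filaments, and the nuclear localization signal (NLS) directs the mutant to the nucleus. HTGTS reads from a fixed break, the bait, into the sequence to which it was joined, the prey. Broken ends that are ligated with little processing keep their terminal bases, whereas resected ends lose bases and often join at a few shared bases, called microhomology (MH). AsiSI leaves 2 unpaired bases at each 3′ end, so the ends of any pair of AsiSI cuts can anneal and be ligated without loss.

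The bait and the prey sites that the results turn on are shown with the reference (mm10) bases around the motif, on the plus strand. Capitals mark the AsiSI motif GCGATCGC, which is cut after its base 5. The bait lies at chr2:13271306-13271335 in an untranslated region of Rsu1. The motif at Romo1 (chr2:156144249-156144278), in an untranslated region 23 bp from a transcription start, ranked first in both libraries with the mutant. Dnmt3b (chr2:153649692-153649721) differed in opposite directions in the pairs, and Smad3 (chr9:63758091-63758120) and Cmip (chr8:117257056-117257085) passed the fold limit in both pairs.
bait at Rsu1: accctgtcccaGCGATCGCgcaggcgcaca
Romo1: cgtcgagctgaGCGATCGCagcggagaacg
Dnmt3b: ggacccgcggcGCGATCGCggcgccgcgct
Smad3: cctcctcctctGCGATCGCcgccttgcagg
Cmip: ccacgccagccGCGATCGCgcgcgcggccc

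The next sequences are reads from bait into prey at Romo1, with the prey on the minus strand, and show the kinds of join counted below. In the first 4, capitals mark the motif bases left at the join.
motif restored: accctgtcccaGCGATCGCtcagctcgacg
1 base lost, bait GCGA to prey CGC: accctgtcccaGCGACGCtcagctcgacgt
1 base lost, bait GCG to prey TCGC: accctgtcccaGCGTCGCtcagctcgacgt
2 bases lost, bait GCG to prey CGC: accctgtcccaGCGCGCtcagctcgacgtc
In the last 2, capitals mark the bases shared by bait and prey, that is an MH of 2 nt in the upper read and of 1 nt in the lower one.
9 bases lost: cacaccctgTCgctcagctcgacgtctcac
11 bases lost: gaacacacccTcgctcagctcgacgtctca

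The tables of the 4 libraries held 16563 junctions. Replicate 1 gave 8443 junctions with EV and 5277 with actin R62D-NLS, whereas replicate 2 gave 1087 with EV and 1756 with the mutant. After junctions within 10 kb of the bait and those outside chromosomes 1 to 19, X and Y were set aside, there remained 8023 and 4994 in replicate 1 and 997 and 1609 in replicate 2. The ratio of mutant to EV was therefore below 1 in replicate 1 (log2 ratio -0.68) and above 1 in replicate 2 (0.69). These are raw numbers that also depend on the amount of DNA and sequencing, so no difference in junction frequency can be read from them. The values that follow are therefore given as percentages of each library. No test was made over the 2 pairs, and the 95% intervals given below cover counting error only. They say nothing about the spread between cultures.

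Prey were read further in replicate 1 than in replicate 2. Median prey length was 65 bp with EV and 51 bp with the mutant in replicate 1, and 44 and 43 bp in replicate 2. Read names put the pair of replicate 1 in a sequencing run with 4 other libraries, and the pair of replicate 2 in a run of its own. The bait aligned with a mismatch in 9.57% to 10.7% of junctions of the 4 libraries. Shares are also set beside those of 11 AsiSI-MEF libraries treated with DMSO, for which no plasmid is described. They show how far control libraries spread, but they are not controls of the mutant.

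Junctions close to AsiSI motifs made up a larger share of the libraries with the mutant. Prey under 500 bp from a motif (proximal) were 69.9% of junctions with EV and 77.7% with actin R62D-NLS in replicate 1, a difference of 7.86 points (95% Newcombe interval 6.32 to 9.38). In replicate 2 they were 84.7% with EV and 87.5% with the mutant, a difference of 2.85 points (0.15 to 5.67). The direction was the same in both pairs, and the mean log2 ratio was 0.10 ± 0.07 (SD, n = 2 pairs). The EV libraries themselves lay further apart than either pair, and the DMSO libraries spanned 51.6% to 80.5%.

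Distal prey, for which no motif lies within 10 kb, were less frequent with the mutant. They were 16.1% of junctions with EV and 13.7% with the mutant in replicate 1, and 13.3% and 10.6% in replicate 2. The difference was -2.42 points (-3.66 to -1.16) in replicate 1 and -2.71 points (-5.37 to -0.17) in replicate 2. The mean log2 ratio was -0.28 ± 0.07 (SD, n = 2 pairs), and it was -0.058 when only the 97 sites that the study lists as frequently cut were taken as motifs. The DMSO libraries held 14.4% to 44.6% distal prey, so that all but the EV library of replicate 1 lay below them. The share on chromosome 2 among distal prey was 19.0% and 19.7% in replicate 1 and 22.6% and 14.0% in replicate 2, so the pairs differed in direction.

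The prey between 500 bp and 10 kb from a motif accounted for the rest. They were 14.0% of junctions with EV and 8.57% with the mutant in replicate 1, but 2.01% and 1.86% in replicate 2. Over all 26 AsiSI-MEF libraries this share was higher in libraries with more junctions (Spearman correlation 0.88 with junction number). The part of junction number in the lower share of replicate 1 was not tested. These prey lay at a median of 1638 and 1615 bp from the motif in replicate 1 and 1563.5 and 1379.5 bp in replicate 2.

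Translocations within chromosome 2 showed no common direction. Intrachromosomal junctions were 26.1% with EV and 28.0% with the mutant in replicate 1, and 28.0% and 26.2% in replicate 2. Differences were 1.93 points (0.37 to 3.51) and -1.82 points (-5.37 to 1.66). Junctions within 10 kb of the bait, which include resected or rejoined bait ends, were 4.96% and 5.33% in replicate 1 and 8.20% and 8.27% in replicate 2. Their difference was 0.36 points (-0.39 to 1.14) and 0.07 points (-2.08 to 2.10). At this depth no difference in rejoining near the bait was detectable in either pair.

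**Figure D1:**
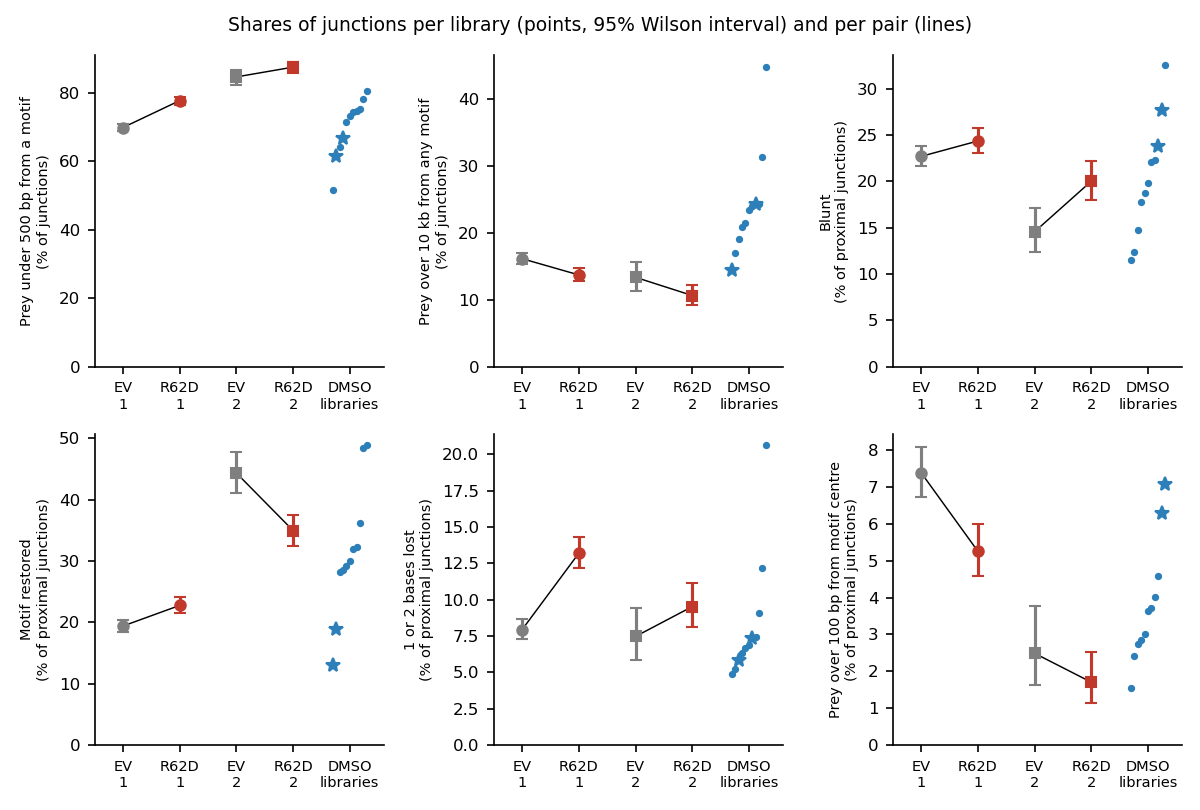
Share of junctions (%, y axes) in each of the 4 libraries, with 95% Wilson intervals and a line joining the EV and actin R62D-NLS library of each replicate, beside the 11 DMSO libraries (blue, stars for the 2 of the same run as replicate 1). Proximal, blunt and 1-or-2-bases-lost shares were higher with the mutant in both pairs, distal shares and prey over 100 bp from the motif centre were lower in both, and the restored motif went from 19.4% to 22.7% in replicate 1 and from 44.3% to 34.9% in replicate 2.

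Joins without any shared base (blunt) were more frequent with the mutant in both pairs. Blunt joins made up 22.5% of junctions with EV and 24.4% with actin R62D-NLS in replicate 1, a difference of 1.93 points (0.44 to 3.44). They made up 15.7% and 20.6% in replicate 2, a difference of 4.82 points (1.77 to 7.78). The log2 ratios were 0.12 and 0.39. The same direction was found among proximal prey, where the shares were 22.7% and 24.4% in replicate 1 and 14.6% and 20.03% in replicate 2. Among distal prey the pairs differed in direction, with 18.2% and 21.6% in replicate 1 and 22.6% and 21.6% in replicate 2. The blunt share also moved with the number of junctions over the 26 AsiSI-MEF libraries (Spearman correlation 0.65), and the part of junction number in these differences was not tested.

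Joins with MH did not follow a common direction. Short MH (1 to 5 nt) was found in 48.6% of junctions with EV and 39.8% with the mutant in replicate 1, but in 33.2% and 37.1% in replicate 2. Long MH (6 nt or more) was found in 16.5% and 20.8% in replicate 1 and in 40.9% and 33.8% in replicate 2. Short MH was thus lower and long MH higher with the mutant in replicate 1, and the reverse was found in replicate 2. Overlaps of 1 nt were 23.6% and 18.3% of junctions in replicate 1 and 15.4% and 17.0% in replicate 2. Overlaps of 3 to 5 nt were found in 10.9% and 9.75% in replicate 1 and in 8.83% and 9.01% in replicate 2. Among distal prey, long MH was 7.58% and 7.31% in replicate 1 and 12.03% and 12.3% in replicate 2, and the intervals of the difference were -2.60 to 2.29 and -7.54 to 7.56 points. The opposite differences in long MH were thus carried by prey at AsiSI motifs in replicate 1, and among the few distal prey of replicate 2 a difference of that size could not be detected.

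**Figure D2:**
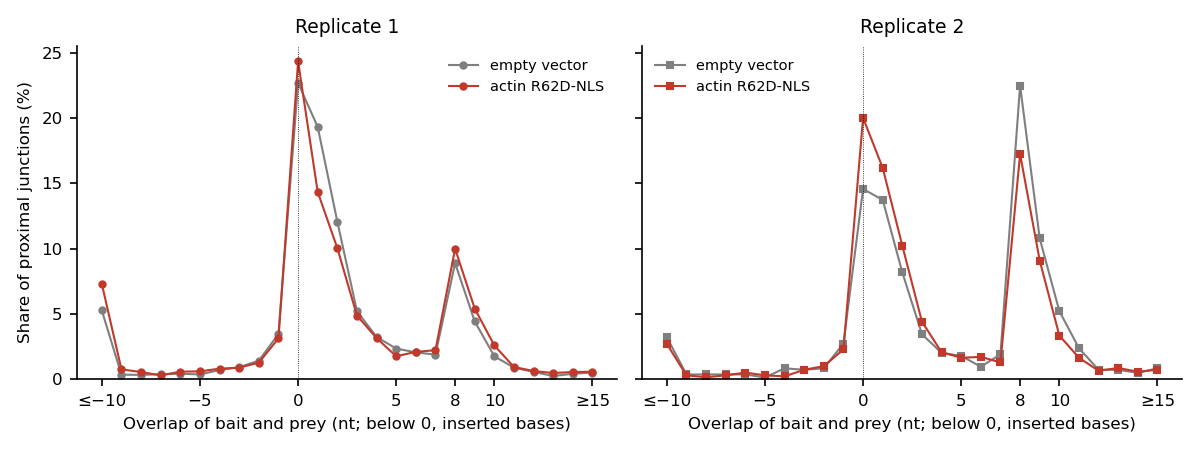
Share of proximal junctions (%, y axis) by the overlap of bait and prey in nt (x axis, 0 is blunt and values below 0 are inserted bases), for EV (grey) and actin R62D-NLS (red), with replicate 1 and replicate 2 in separate panels. The peak at 0 nt was higher with the mutant in both panels, whereas the peak at 8 nt, the length of the motif, was 8.90% and 9.99% in replicate 1 and 22.5% and 17.3% in replicate 2.

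Long MH at AsiSI motifs consisted mostly of joins in which the complete motif stood between bait and prey. Such a read holds the bases that ligation of the annealed ends without loss would leave, and the 8 motif bases are then shared by bait and prey. Among proximal junctions with long MH, 86.0% and 87.6% carried the restored motif in replicate 1 and 94.4% and 92.9% in replicate 2. The restored motif was present in 19.4% of proximal junctions with EV and 22.7% with the mutant in replicate 1, and in 44.3% and 34.9% in replicate 2. The difference was 3.36 points (1.69 to 5.04) in replicate 1 and -9.37 points (-13.53 to -5.20) in replicate 2.

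The restored share followed the size of the library. Over the 26 AsiSI-MEF libraries its Spearman correlation with junction number was -0.84, and in each pair the library with fewer junctions had the higher share. Duplicate reads are removed before deposition, but the tables still held junctions with the same prey position, strand, bait end and overlap, each listed up to 4 times in a library. Counted once, they left 7494 of 8023 junctions with EV and 4656 of 4994 with the mutant in replicate 1, and 953 of 997 and 1510 of 1609 in replicate 2. A restored join was found on 527 of 549 sides of motifs with outward prey in the EV library of replicate 1 (96.0%) and on 489 of 514 with the mutant (95.1%). In replicate 2 it was found on 303 of 322 sides with EV (94.1%) and on 366 of 399 with the mutant (91.7%). Nearly every side with outward prey thus held a restored join in each of the 4 libraries, so this count leaves little room for a difference. The part of duplicate removal in the opposite differences of the restored share was not tested.

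Losses of 1 or 2 bases were more frequent with the mutant in both pairs. These joins made up 7.94% of proximal junctions with EV and 13.2% with actin R62D-NLS in replicate 1, a difference of 5.25 points (3.99 to 6.54). They made up 7.46% and 9.52% in replicate 2, a difference of 2.05 points whose interval (-0.38 to 4.34) includes 0. The log2 ratios were 0.73 and 0.35. In numbers there were 445 such joins with EV and 512 with the mutant in replicate 1, although that mutant library held fewer junctions. Replicate 2 held 63 and 134. They were found on 45.5% and 50.6% of the sides of motifs with outward prey in replicate 1 and on 14.9% and 22.1% in replicate 2. Their share moved little with junction number over the 26 libraries (Spearman correlation 0.22), but the DMSO libraries spanned 4.92% to 20.6%, a range that includes all 4 values. The DMSO libraries of the run of replicate 1 held 5.85% and 7.36%, below both values of that replicate. Counted among outward joins without insertion or restored motif, the share was 13.5% and 25.8% in replicate 1 and 19.7% and 19.0% in replicate 2. By this denominator the higher share was limited to replicate 1. It includes joins with more bases than the cut ends hold, 39 and 17 in replicate 1 and 0 and 5 in replicate 2.

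The commonest of these small losses removed 1 or both of the overhanging bases. The join of bait GCG to prey CGC, which lacks both, was listed 121 times with EV and 174 times with the mutant in replicate 1, and 17 and 32 times in replicate 2. As a share of proximal junctions it was 2.16% and 4.48% in replicate 1 and 2.01% and 2.27% in replicate 2. Bait GCGA to prey CGC, which lacks 1 base, was 2.12% and 3.71% in replicate 1 and 2.01% and 1.92% in replicate 2. Only bait GCG to prey TCGC had similar ratios in both pairs, at 1.80% and 2.81% in replicate 1 (log2 ratio 0.64) and 1.90% and 3.05% in replicate 2 (0.69). At Romo1 each of these 3 joins was listed 2 times in both libraries of replicate 1 and 1 or 2 times in those of replicate 2.

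The position of the bait end showed the same direction, but it is not independent of the joins above. The named joins from bait GCG or GCGA are blunt and have bait ends 1 or 2 bases before the break by definition. The shares of blunt joins, of small losses and of these bait ends thus count partly the same junctions. Bait ends 1 or 2 bases before the break made up 27.2% of proximal junctions with EV and 30.6% with the mutant in replicate 1, a difference of 3.39 points (1.54 to 5.25). They made up 16.8% and 21.7% in replicate 2, a difference of 4.91 points (1.52 to 8.16). Bait ends at least 5 bases before the break were 30.5% and 23.4% in replicate 1 and 22.5% and 24.9% in replicate 2, without a common direction. These are shares of all proximal junctions, of which restored joins were 44.3% and 34.9% in replicate 2. Shares among the remaining joins were not taken, and the direction can depend on this base. Among distal prey, bait ends 1 or 2 bases before the break were 35.2% and 36.1% in replicate 1 and 25.6% and 21.6% in replicate 2. No bait end more than 15 bases before the break was recorded, so larger losses on that side are not seen.

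Larger losses differed between the pairs. Losses of 3 to 20 bases were found in 34.6% and 26.0% of proximal junctions in replicate 1 and in 25.2% and 31.2% in replicate 2. Losses of more than 20 bases were found in 15.5% and 11.5% in replicate 1 and in 5.09% and 9.02% in replicate 2. Both classes were lower with the mutant in replicate 1 and higher in replicate 2. The loss of 9 bases at an MH of 2 nt, shown above at Romo1, was 2.39% and 1.78% in replicate 1 and 1.90% and 2.77% in replicate 2. The loss of 11 bases at an MH of 1 nt was lower with the mutant in both pairs, at 1.96% and 1.21% in replicate 1 and 2.96% and 2.34% in replicate 2, but the interval of the difference in replicate 2 was -2.15 to 0.71 points.

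**Figure D3:**
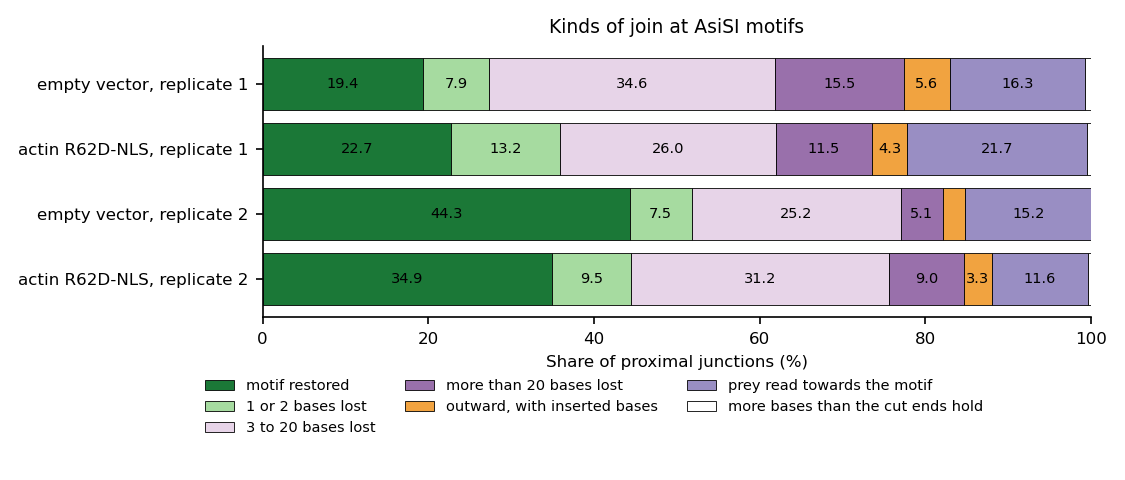
Share of proximal junctions (%, x axis) of each kind of join in the 4 libraries, as stacked bars that add up to 100%. The motif restored without loss took 19.4% and 22.7% in replicate 1 and 44.3% and 34.9% in replicate 2, and the band of 1 or 2 bases lost widened from 7.94% to 13.2% and from 7.46% to 9.52%.

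Inserted bases and prey read towards the motif also differed in opposite directions. Insertions were found in 12.4% and 14.96% of junctions in replicate 1 and in 10.1% and 8.51% in replicate 2. Prey that started outside the motif and were read towards it made up 16.3% and 21.7% of proximal junctions in replicate 1 and 15.2% and 11.6% in replicate 2. Insertions were frequent in this orientation in all 4 libraries, at 48.7% and 54.1% in replicate 1 and 46.9% and 43.3% in replicate 2, compared with 6.67%, 5.53%, 3.21% and 3.78% of outward prey in the same order. The inward reads that ended inside the motif were 27.2% and 34.0% of inward prey in replicate 1 and 36.7% and 42.7% in replicate 2, higher with the mutant in both pairs, with intervals of 2.52 to 11.12 points and -5.35 to 16.93 points. Of inserts of 20 to 30 bases at proximal prey, 75 of 107 with EV and 72 of 97 with the mutant in replicate 1 matched the opposite strand within 1 kb of the prey. In replicate 2 these were 5 of 9 and 6 of 10. A difference in the origin of long inserts was not detectable at these numbers.

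Resection on the prey side is seen as the distance of outward prey from the motif. The shares of proximal prey given first also count inward prey, which were read towards the motif. The median distance from the motif centre was 5.5 bp with EV and 4.5 bp with the mutant in replicate 1, and 3.5 bp in both libraries of replicate 2. Prey more than 100 bp away were 7.38% of proximal junctions with EV and 5.26% with the mutant in replicate 1, a difference of -2.13 points (-3.10 to -1.14). They were 2.49% and 1.70% in replicate 2, or 21 and 24 junctions, a difference of -0.78 points with an interval (-2.18 to 0.40) that includes 0. The log2 ratios were -0.49 and -0.55. Of these prey, 175 of 414 with EV and 71 of 204 with the mutant were outward in replicate 1. In replicate 2 the outward prey were 7 of 21 and 13 of 24, so the lower share there was not seen in outward prey. Prey more than 50 bp away were 16.4% in both libraries of replicate 1, and 9.48% and 7.53% in replicate 2. Prey more than 20 bp away were 28.6% and 30.7% in replicate 1 and 18.5% and 18.4% in replicate 2. Of these 3 limits only 100 bp gave a lower share with the mutant in both pairs. At 50 bp the share was also lower in both when each prey position and strand was counted once (log2 ratios -0.14 and -0.18) or when the bait aligned without a mismatch (-0.042 and -0.18).

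Among outward prey the direction depended on the denominator. Outward prey more than 100 bp from the motif centre were 3.73% and 2.34% of all outward prey in replicate 1 and 0.978% and 1.05% in replicate 2, without a common direction. Among outward joins without insertion or restored motif they were 5.01% and 3.27% in replicate 1 and 2.19% and 1.56% in replicate 2. This was lower with the mutant in both pairs (log2 ratios -0.62 and -0.49), but the interval of the difference in replicate 2 was -3.001 to 1.02 points. Outward prey more than 20 bp away were 14.7% and 11.5% in replicate 1 and 4.19% and 7.72% in replicate 2. The distance that held 95% of proximal prey was 156.5 and 104.45 bp in replicate 1 and 64.5 and 60.15 bp in replicate 2. The DMSO libraries held 1.54% to 7.10% of proximal prey more than 100 bp away, and those of the run of replicate 1 held 6.29% and 7.10%.

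**Figure D4:**
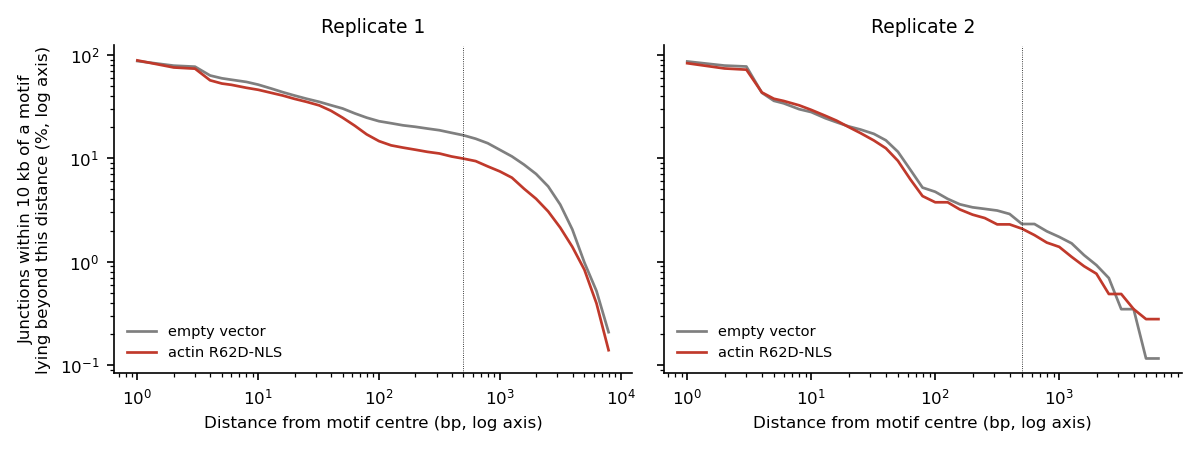
Share of junctions within 10 kb of a motif that lay beyond a given distance from the motif centre (%, log y axis) against that distance in bp (log x axis, dotted line at 500 bp), for EV (grey) and actin R62D-NLS (red). In replicate 1 the curve of the mutant ran below that of EV over most of the range, and in replicate 2 the curves lay close together and crossed.

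Most of the leading sites were shared by the libraries of a pair, although their order changed. The 10 sites with the most junctions in the EV libraries were Arhgap11a, Nup214, Romo1, Dnmt3b, Arhgap21, Samhd1, Gm13610, Mex3a, Egfl7 and Pip4k2a, of which 9 lie on chromosome 2 with the bait. Pip4k2a was tied for the last of these places with Fign and Fam160b1, with 89 junctions at each of the 3 sites, and was taken as the first in genome order. With Fam160b1, on chromosome 19, in its place 8 of the 10 would lie on chromosome 2. The 10 sites held 23.8% and 24.4% of proximal prey in replicate 1 and 25% and 24.5% in replicate 2. Of its own 10 leading sites the library with the mutant shared 9 with its EV library in replicate 1, and 7 to 9 in replicate 2 depending on how ties were broken. In replicate 1 Arhgap11a went from rank 1 with EV to rank 3 with the mutant, and Nup214 from rank 2 to rank 6. Over the 162 sites with at least 20 junctions, log2 shares correlated across sites with Spearman correlation 0.78 between the libraries of replicate 1 and 0.70 between those of replicate 2, compared with 0.62 between the EV libraries and 0.68 between the mutant libraries. Across both group and replicate the values were 0.71 for the mutant library of replicate 1 with the EV library of replicate 2 and 0.58 for the other such combination, so the pair of replicate 2 did not stand above all other combinations. These values describe sites that share a bait and a genome, and sites are not replicates. The number of sites with a junction was 293 and 281 in replicate 1 and 215 and 233 in replicate 2. Thinned to 844 proximal junctions each, the libraries would hold 212 and 213 sites in replicate 1 and 215 and 207 in replicate 2.

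Among the foremost sites, Romo1, which encodes a small mitochondrial membrane protein, held 173 junctions with EV and 140 with the mutant in replicate 1 and 36 and 63 in replicate 2. These were 2.16% and 2.80% of junctions (ranks 3 and 1) and 3.61% and 3.92% (ranks 2 and 1). Its share was higher with the mutant in both pairs (log2 ratios 0.38 and 0.11), but the Wilson intervals overlapped in both. Dnmt3b, which encodes a de novo DNA methyltransferase, held 1.78% and 2.70% in replicate 1 and 4.11% and 3.05% in replicate 2. It went from rank 6 to rank 2 in replicate 1 and from rank 1 to rank 2 in replicate 2, so the pairs differed in direction.

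Arhgap11a, where the motif lies in a coding exon (chr2:113847994-113848001), held 190 and 113 junctions in replicate 1 and 22 and 43 in replicate 2. Its shares were 2.37% and 2.26% in replicate 1 and 2.21% and 2.67% in replicate 2. Nup214, which encodes a protein of the nuclear pore and where the motif lies in an intron (chr2:31974701-31974708), was lower with the mutant in both pairs, at 2.23% and 1.84% in replicate 1 and 3.01% and 2.73% in replicate 2. Gm13610, a gene model without a known role, was also lower in both pairs, at 1.43% and 1.22% and at 1.60% and 1.43%. The other 5 sites near Arhgap21, Samhd1, Mex3a, Egfl7 and Pip4k2a were higher in both pairs, with log2 ratios between 0.03 and 0.48. In all, 6 of the 10 leading sites were higher, 2 lower and 2 of opposite direction, and proximal prey as a whole were also a larger share in both libraries with the mutant. Of all 162 sites tested, 51 were higher in both pairs, 29 lower in both and 82 of opposite direction.

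The tied sites Fign and Fam160b1 both differed in direction between the pairs. At Fign there were 77 junctions with EV and 48 with the mutant in replicate 1 and 12 and 8 in replicate 2 (log2 ratios 0.0076 and -1.25). At Fam160b1 there were 82 and 47 in replicate 1 and 7 and 18 in replicate 2 (-0.11 and 0.61). With either in the place of Pip4k2a, 5 of the 10 sites were higher in both pairs, 2 lower and 3 of opposite direction.

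The restored motif at most of these sites differed as in the whole libraries. With the mutant it was higher at all 10 leading sites in replicate 1 (9 with Fam160b1 in the place of Pip4k2a) and lower at 7 of them in replicate 2 (6 with Fign). At Nup214 it was 8.94% and 17.4% of junctions in replicate 1 and 16.7% and 20.5% in replicate 2. At Gm13610 it was 16.5% and 18.03% in replicate 1 and 43.8% and 39.1% in replicate 2. Blunt joins were higher with the mutant in both pairs at 3 leading sites (4 with Fam160b1 in the place of Pip4k2a) and lower in both at 3, so the higher blunt share of the whole libraries was not seen at each site. The counts of restored and blunt joins were not taken over all 162 sites tested, so they do not set the leading sites apart from the rest.

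**Figure D5:**
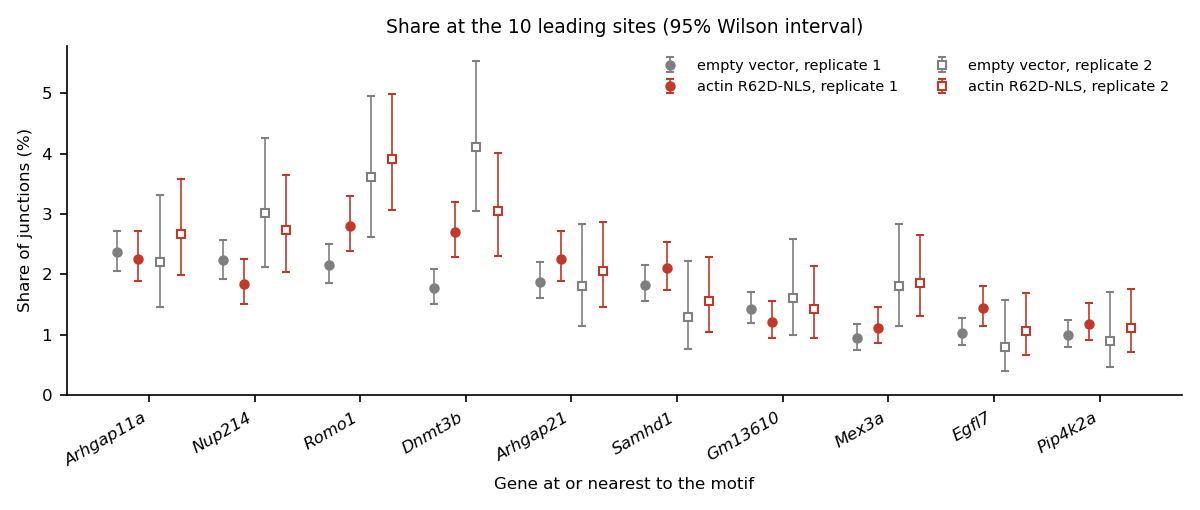
Share of all junctions (%, y axis) at each of the 10 leading sites (x axis, named by the gene at or nearest to the motif), with 95% Wilson intervals, for EV (grey) and actin R62D-NLS (red) in replicate 1 (filled circles) and replicate 2 (open squares). Within each pair the intervals overlapped at all sites other than Dnmt3b in replicate 1, and Dnmt3b was higher with the mutant in replicate 1 (1.78% and 2.70%) and lower in replicate 2 (4.11% and 3.05%).

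Few sites differed by the fold limit in both pairs. Of the 162 sites tested, 2 had a share at least 2-fold higher with actin R62D-NLS in both pairs (1.23%) and 0 had a share at least 2-fold lower in both (0%). At any size, 51 sites were higher in both pairs, 29 were lower in both and 82 differed in direction between the pairs. The median log2 ratio over the sites was 0.14 in replicate 1 and 0.05 in replicate 2, with an SD over sites of 0.55 and 0.82. The wider spread of replicate 2 goes with its lower junction numbers.

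The 2 sites were near Smad3, which encodes a transcription factor of TGF-β signalling, and in Cmip, which encodes the c-Maf inducing protein. At Smad3 there were 14 junctions with EV and 20 with the mutant in replicate 1 and 1 and 7 in replicate 2, with log2 ratios of 1.18 and 1.63 after 0.5 junctions were added. At the called Cmip motif there were 9 and 12 in replicate 1 and 0 and 2 in replicate 2, so that the call in replicate 2 rested on 2 junctions. A neighbouring motif near Cmip (chr8:117256841-117256848) held more junctions, 16 and 19 in replicate 1 and 8 and 16 in replicate 2. Its log2 ratios were 0.92 and 0.27, so it stayed below the fold limit in both pairs. Prey were divided between these motifs by the shorter distance. A count of 0 in 997 junctions allows a share of up to 0.301% when 3 counts are taken as its limit, and of 0.384% by the Wilson interval, both above the 0.124% of the mutant library. In windows of 100 kb, 1 of the 226 windows with at least 10 junctions was at least 2-fold higher in both pairs (0.442%), and it held the Smad3 motif. Its counts were 16 and 21 in replicate 1 and 1 and 7 in replicate 2. The window thus counts mostly the same junctions as the Smad3 site and is no separate result. No window was lower in both (0%).

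The annotation of the prey differed little with and without the mutant. Within 3 kb of a transcription start lay 96.6% and 97.8% of proximal prey in replicate 1 and 97.3% and 97.6% in replicate 2. The difference was 1.13 points (0.45 to 1.79) in replicate 1, an interval that excludes 0, and 0.31 points (-0.99 to 1.81) in replicate 2. Of distal prey, 31.6% and 30.1% lay there in replicate 1 and 28.6% and 28.7% in replicate 2. Distal prey rarely recurred between the 4 libraries. Within 1 kb of a junction in another of them lay 8.20% and 11.1% of distal prey in replicate 1 and 10.5% and 11.1% in replicate 2. The most frequent distal windows of 10 kb were chr9:42260001-42270000, with 36 and 21 junctions in replicate 1 and 3 and 4 in replicate 2, and chr13:93490001-93500000, with 21 and 16 and with 2 and 1. As shares of distal prey these windows were 2.78% and 3.07% in replicate 1 and 2.26% and 2.34% in replicate 2 on chromosome 9, and 1.62% and 2.34% and 1.504% and 0.585% on chromosome 13.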

How the data were processed

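HTGTS libraries were made from sonicated genomic DNA with a biotinylated and a nested primer beside the bait and sequenced on an Illumina MiSeq. The authors used the Burrows–Wheeler Aligner with genome build mm10, followed by the filters of the HTGTS pipeline, whose version is not given in the sources used here. Each deposited table holds 1 library without pooling, as positions on genome and read with 1 line per junction left after removal of duplicates and poorly mapped reads. Joins that arise again in other cells with the same ends can therefore be undercounted. Values are not normalized, and the bait-only sequences to which the study scales its frequencies were not used here.

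The motif was read from the mm10 reference at the positions of the study's list, and all 1109 matches in the reference are on that list. Prey were assigned to the nearest motif and annotated with GENCODE. The overlap is the number of read bases covered by bait and prey. Bases lost were counted over both ends from the cut, and prey that started no more than 8 bases before the motif and ran away from it were called outward. Shares have 95% Wilson intervals and differences Newcombe intervals. Sites were named if they were among the 10 with the most junctions over the EV libraries or passed a fold of 2 in both pairs, with up to 5 in each direction, after 0.5 junctions were added. The script that calls sites was tested on simulated data. Libraries were paired by replicate number because the labels number them so and the read names of a pair name the same run. A correlation of deviations over 2 pairs was not used. The named groups of sites, the kinds of join and the distance limits were chosen with earlier results of these data known. Alternatives covered the region left out around the bait, repeated prey positions, 79 repeat windows of 10 kb and telomeric prey, frequently cut sites, class limits, site limits, the pairing and each replicate. The 12 Hi-C samples were not analysed here. Python 3.11.15, numpy 2.4.6, pandas 2.3.3, scipy 1.17.1 and matplotlib 3.10.9 were used.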

Additional observations from a re-analysis of the deposited data

How the results depend on the processing

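Of 136 recomputed values, 123 moved by less than the spread between the pairs or, for counts, stayed within a factor of 1.5. For a log2 ratio left to a single pair this was fixed in advance, because each of 2 values lies nearer to their mean than their SD. Some alternatives, such as leaving out repeat windows for the share at the leading sites, did not change the value at all. The number 123 includes both kinds. The other 13 moved further. Of the values with a common direction in the pairs, 0 changed the sign of their mean. The common direction itself was lost for the near-bait share with each prey position and strand counted once (log2 ratios 0.08 and -0.07). It was also lost for the blunt share over distal prey (0.25 and -0.06). The log2 ratio of the distal share was -0.058 with frequently cut sites as the only motifs, against -0.28 with all motifs, and that of prey far from the motif was -0.52 with a limit of 100 bp, against -0.16 with 50 bp. The count of sites at least 2-fold higher in both pairs was 1 with a minimum of 40 junctions, 1 with 1 junction added and 10 with a fold of 1.5, against 2. The count of sites at least 2-fold lower was 1 with a minimum of 10 junctions and 4 with a fold of 1.5, against 0. Without the replicate block, that is from the mean shares of each group, the counts were 7 higher and 2 lower, and the log2 ratios were -0.45 for junction number, -0.28 for the distal share and 0.56 for joins with 1 or 2 bases lost. Left to a single pair, the counts ranged from 6 to 15 higher and from 5 to 12 lower. Keeping junctions whose bait aligned without a mismatch, an alternative chosen after seeing the data, left all 13 log2 ratios within the spread between the pairs, and so did the use of either of the other sites tied for the last leading place. The main limits are the 997 junctions of the EV library of replicate 2, the removal of duplicates before deposition, whose effect on joins with identical ends was not measured, and the presence of no more than 2 pairs.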
